A study of Mus musculus with 4 samples.

Results

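The expression of 10 genes that build the basement membrane was followed in mouse embryonic stem (ES) cells deficient in Myh9, which codes for a non-muscle myosin heavy chain (myosin IIA), and in their wild-type (WT) counterparts. The genes are the laminin chain genes Lama1, Lama5, Lamb1 and Lamc1, the nidogen genes Nid1 and Nid2, the collagen IV chain genes Col4a1 and Col4a2, and the heparan sulfate proteoglycan genes Agrn and Hspg2. They were chosen by name, each name matched 1 of the 50600 gene rows, and all 10 were among the 11231 genes tested. The RNA-seq data came from 2 Myh9 KO libraries and 2 WT libraries, both of the OG2ES line labelled as derived from the inner cell mass, and all cells were kept in mES medium with 2i, inhibitors that hold ES cells in the naive state. The labels name no clone and do not say that the libraries of a group were separate cultures, so p-values cover the spread among these libraries and this spread may be technical only. An effect of the loss of Myh9 cannot be told apart from a difference particular to the KO line.

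The basement membrane is a thin sheet of extracellular matrix that lies under epithelia and forms early in the embryo. Laminins are trimers of an alpha, a beta and a gamma chain that polymerise at the cell surface, where integrins and dystroglycan bind them. Nidogens and the proteoglycans perlecan and agrin join the laminin sheet to a second network made of collagen IV. In the early mouse embryo this matrix is laid down by extraembryonic endoderm and by the epiblast, the tissue whose naive cells ES cells resemble.

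The deposited values were whole numbers whose totals lay between 992098 and 992317 per library. They were therefore treated as scaled expression values and not as read counts, and the depth of the libraries is unknown. Whether they were divided by transcript length is not stated, so levels were compared within a gene and not between genes. Myh9 itself fell to a value of 9 in each Myh9 KO library, against 83 and 100 in the WT libraries (log2 fold change -3.20 ± 0.12, adjusted p = 0.00675 by limma). The ES cell markers were present in both groups, with Pou5f1 at 3104 and 3189 in Myh9 KO and at 3045 and 3122 in WT.

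Fold changes are those of Myh9 KO over WT on the scale of log2(value + 1), where the change of a gene with low values comes out too small. The number after ± is the standard error (SE) from the fit to 2 libraries per group, and values in brackets without a name are log2 fold changes. A gene passed when its adjusted p was under 0.05 both in the limma test on the values as deposited and in a second limma test in which random decimals were added to the whole numbers. The second test was needed because 2582 of the tested genes had equal values in both Myh9 KO libraries and 2706 had equal values in both WT libraries, which leaves no spread between replicates. In simulated whole numbers, with few genes changed, most calls of the first test alone were false. That share depends on how many genes change and may differ in these data. A call on the deposited values alone was not counted as a rise or a fall. Of 8 ES cell markers, Sox2 alone was called by both tests, with values of 126 and 121 in Myh9 KO, against 177 and 183 in WT (-0.54, limma adjusted p = 0.0178). With random decimals alone 3 of the 8 were higher and 2 lower, Sox2 included.

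Of the 10 basement membrane genes, Col4a1 rose and Lamc1, Nid1, Nid2 and Agrn fell in Myh9 KO cells. Over all genes tested, 5.12% were called higher and 5.79% lower by both tests. The values as deposited gave the same 1 higher and 4 lower members, against 7.17% and 7.96% of all genes. With random decimals 3 members were higher and 5 lower, against 11.0% and 12.0% of all genes. The median log2 fold change was -0.11 over the 10 members and 0.00 over all genes tested. In 9 of the 10 members the values of the groups did not overlap, as in 53.5% of all genes tested. On the deposited values, leaving out any 1 library ended the calls of the 4 members that fell (adjusted p by limma 0.0604 to 0.199), and leaving out either Myh9 KO library ended those of Col4a1 (at most 0.0992) and of Myh9 (at most 0.0709). With random decimals all 5 members kept the direction of their change without any 1 library. A fit without 1 library has a group of 1 library, which gives no spread of its own, so it cannot show that a call is robust. In bulk RNA, fewer cells that make a transcript and less of it per cell cannot be told apart.

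**Figure D1:**
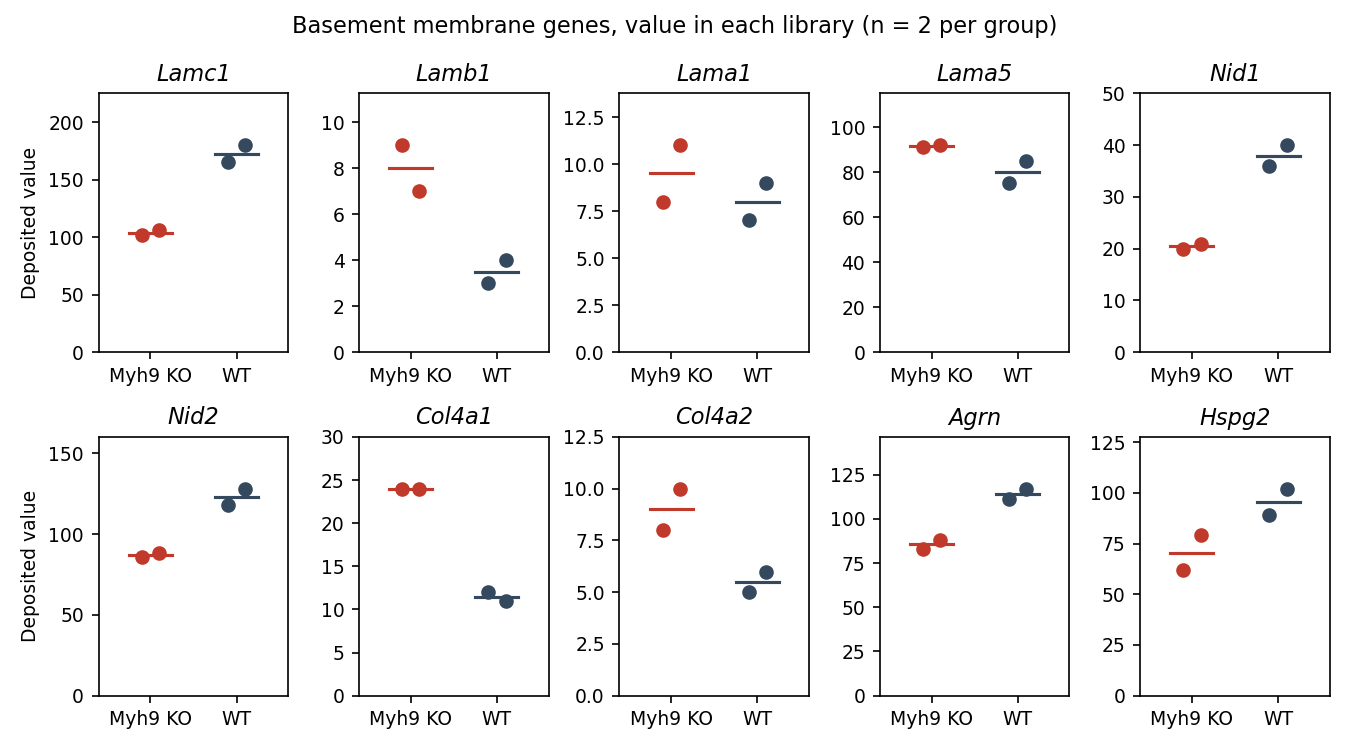
Deposited value (y axis, from 0, own scale per gene) of the 10 basement membrane genes in each library; points are single libraries, lines are means, Myh9 KO is left and WT right. Lamc1, Nid1, Nid2, Agrn and Hspg2 are lower in both Myh9 KO libraries, Col4a1, Col4a2, Lamb1 and Lama5 are higher, and Lama1 overlaps.

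Among the laminin chains the gamma chain fell. Lamc1 codes for gamma 1, the gamma chain of most laminins of early embryos (ENSMUSG00000026478, mm10 chr1:153218922-153332786, minus strand). It had values of 102 and 106 in Myh9 KO 1 and 2, against 165 and 180 in WT 1 and 2. Both Myh9 KO values lay far below both WT values, and the libraries of a group differed by 0.05 in Myh9 KO and 0.12 in WT on the log2 scale. The log2 fold change was -0.72 ± 0.06 (SE, adjusted p = 0.0266 by limma, and 0.000204 with random decimals), or a fold of 0.606 with a 95% confidence interval of 0.523 to 0.701.

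Lamb1 codes for the beta 1 chain (ENSMUSG00000002900, chr12:31265234-31329644, plus strand). It was listed at 9 and 7 in Myh9 KO, against 3 and 4 in WT. The groups did not overlap, but at values this low a step of 1 unit is a large share of the level. The log2 fold change was 1.00 (SE 0.20), the limma adjusted p was 0.0933, and with random decimals it was 0.00926, so Lamb1 passed the second test only. Its call also appeared with a median-of-ratios scaling of the libraries (limma adjusted p = 0.0469), with the chromosome median removed (0.0337) and with the trend on GC content and length removed (0.0228).

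The alpha chain genes were called by neither test. Lama5, for the alpha 5 chain that many ES cell culture substrates contain (ENSMUSG00000015647, chr2:180176373-180225859, minus strand), had values of 91 and 92 in Myh9 KO, against 75 and 85 in WT. The groups did not overlap, and the log2 fold change was 0.19 ± 0.08 (SE, adjusted p = 0.234 by limma, fold interval 0.945 to 1.38). Lama1, for the alpha 1 chain of embryonic basement membranes (ENSMUSG00000032796, chr17:67697265-67822645, plus strand), was listed at 8 and 11 in Myh9 KO and at 7 and 9 in WT. These groups overlap, and the fold interval of 0.666 to 2.03 leaves room for a rise or a fall (0.22 ± 0.23, adjusted p = 0.56).

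A ratio of a pair of genes within a library does not depend on transcript length when it is compared between groups. The ratio of Lamc1 to Lama5 was 1.12 and 1.15 in Myh9 KO, against 2.2 and 2.12 in WT. The ratio of Lamc1 to Lamb1 was 11.3 and 15.1 in Myh9 KO, against 55.0 and 45.0 in WT, and rests on the low values of Lamb1. Neither ratio overlapped between groups, and neither was tested. This follows from the values above, as Lamc1 was lower and Lama5 and Lamb1 were higher in both Myh9 KO libraries. The ratios therefore add no separate evidence.

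Among the other laminin chain genes described here, Lamb2 reached the filter on low values and was called by neither test. Lamb2, for the beta 2 chain, had values of 24 and 25 in Myh9 KO and of 24 and 27 in WT (log2 fold change -0.05 ± 0.08, adjusted p = 0.684 by limma, fold interval 0.799 to 1.16). Lama2, Lama4 and Lamc3 were listed at 0 in all 4 libraries, Lama3 at 0 or 1, and Lamb3 at 2 and 1 in Myh9 KO and 0 in WT.

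Both nidogen genes fell. Nidogens bind the gamma 1 chain of laminin and link it to collagen IV and perlecan. Nid1 (ENSMUSG00000005397, chr13:13437602-13512275, plus strand) had values of 20 and 21 in Myh9 KO, against 36 and 40 in WT, a log2 fold change of -0.86 ± 0.07 (SE, adjusted p = 0.0266 by limma, and 0.000627 with random decimals). Nid2 (ENSMUSG00000021806, chr14:19751257-19811787, plus strand) had values of 86 and 88 in Myh9 KO, against 118 and 128 in WT, a log2 fold change of -0.49 ± 0.05 (SE, adjusted p = 0.0384 by limma, and 0.00139 with random decimals). In both genes each Myh9 KO value lay below each WT value.

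The fold of Nid1 was 0.552 (95% interval 0.463 to 0.658) and that of Nid2 0.71 (0.623 to 0.809). The ratio of Nid1 to Nid2 was 0.233 and 0.239 in Myh9 KO, against 0.305 and 0.313 in WT, with no overlap and no test. Nid2 shares 437 bases with Rtraf on the opposite strand, and the protocol names no step that marks the strand. Rtraf had values of 161 and 153 in Myh9 KO, against 184 and 179 in WT, so reads of the shared stretch cannot be told apart. Nid1 shares 8063 bases of its annotated span with Gm48682, an antisense gene on the opposite strand for which no values were given. For Nid1, 2.09% of the 50-base words of its transcript occur in other genes, and the share was 0% for each of the other 9 members.

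The proteoglycan gene Agrn fell. It codes for agrin, which carries heparan sulfate and binds laminin and dystroglycan (ENSMUSG00000041936, chr4:156165290-156197488, minus strand). It had values of 83 and 88 in Myh9 KO, against 111 and 117 in WT, with a log2 fold change of -0.41 ± 0.05 (SE, adjusted p = 0.0449 by limma, and 0.0031 with random decimals). The groups were well apart, although the fold of 0.752 (95% interval 0.666 to 0.849) was the nearest to 1 among the 5 members that passed.

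Hspg2 codes for perlecan, the large proteoglycan that binds nidogen and laminin (ENSMUSG00000028763, chr4:137468769-137570630, plus strand). Its values were 62 and 79 in Myh9 KO, against 89 and 102 in WT. The Myh9 KO libraries differed from each other by 0.34 on the log2 scale, the widest such gap among members with values above 20. The log2 fold change was -0.44 ± 0.17 (SE, adjusted p = 0.225 by limma, fold interval 0.485 to 1.12), and Hspg2 passed with random decimals (0.0287) and with the trend on GC content and length removed (0.0046). Without WT 2 or Myh9 KO 1 it did not pass with random decimals either (at most 0.141).

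RefSeq promoter windows (GRCm38.p6) were found for 7 of the 10 members, and those of Nid1 and Agrn are shown as the only members that fell and have an entry. Each line gives, 5′ to 3′ on the gene's strand, the bases from 250 to 52 before the RefSeq start, and capitals mark the GC box GGGCGG on either strand.
Nid1: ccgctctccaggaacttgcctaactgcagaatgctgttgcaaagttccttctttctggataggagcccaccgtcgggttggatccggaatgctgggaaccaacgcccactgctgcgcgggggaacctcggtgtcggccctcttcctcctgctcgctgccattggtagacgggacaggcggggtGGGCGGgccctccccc
Agrn: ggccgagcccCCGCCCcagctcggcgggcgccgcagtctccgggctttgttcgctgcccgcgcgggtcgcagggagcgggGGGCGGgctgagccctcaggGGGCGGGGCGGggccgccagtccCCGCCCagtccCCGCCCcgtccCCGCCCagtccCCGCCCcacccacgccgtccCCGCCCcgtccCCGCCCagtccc
The windows are chr13:13437352-13437550 on the plus strand and chr4:156197540-156197738 on the minus strand. The Agrn window held 10 matches, overlapping ones included, and the Nid1 window 1. The member windows with the next highest numbers were those of Hspg2 with 5, Lama5 with 3 and Lamb1 with 2, while Col4a2 had 1 and Col4a1 had 0. Of 27025 RefSeq promoters, 24.33% held the motif in the same window and 0.733% held it 5 or more times. Of the members with more than 1 match, Agrn passed both tests, Hspg2 and Lamb1 the one with random decimals, in opposite directions, and Lama5 neither. CCAAT on either strand was found once in the windows of Nid1, Lamb1 and Col4a1 (28.69% of all promoters), and TATAAA in none of the 7 (9.46%).

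The collagen IV chain gene Col4a1 rose. Alpha 1 and alpha 2 chains assemble as trimers, with a pair of alpha 1 chains for each alpha 2 chain, and their genes lie head to head. Col4a1 (ENSMUSG00000031502, chr8:11198423-11312826, minus strand) was listed at 24 in each Myh9 KO library, against 12 and 11 in WT. The log2 fold change was 1.00 ± 0.05 (SE, adjusted p = 0.0134 by limma), or a fold of 2.00 with an interval of 1.76 to 2.28. This interval rests on equal values in the Myh9 KO libraries. With random decimals the log2 fold change was 0.98 and its SE was wider, at 0.11 (limma adjusted p = 0.000639). Col4a2 (ENSMUSG00000031503, chr8:11312805-11449287, plus strand) was listed at 8 and 10 in Myh9 KO, against 5 and 6 in WT. Both groups were apart, but Col4a2 passed with random decimals only (log2 fold change 0.62 ± 0.16, adjusted p = 0.131 by limma, and 0.0406 with random decimals), and not in that test without Myh9 KO 2, WT 1 or WT 2 (at most 0.189).

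The summed value of both chains was 32 and 34 in Myh9 KO, against 17 in each WT library. This sum depends on the unknown scaling by length and mostly repeats the values of Col4a1. The ratio of Col4a1 to Col4a2 was 3.00 and 2.40 in Myh9 KO and 2.40 and 1.83 in WT, which touch at 2.40. The annotated first exons of the pair overlap by 22 bases, shown in capitals with 4 bases on either side on the plus strand (RefSeq, GRCm38.p6, chr8:11312801-11312830).
Col4a1 and Col4a2: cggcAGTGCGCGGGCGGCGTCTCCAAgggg
Both transcripts start in this stretch and run in opposite directions, and the library protocol gives no way to assign a read from it to a strand.

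Col4a1 and Col4a2 lie on chromosome 8, and genes of this chromosome tended to be higher in Myh9 KO. Over its 646 tested genes the median log2 fold change was 0.21, and 12.5% were called higher by both tests, against 5.12% of all genes. The change of Col4a1 was above that of 97.2% of tested chromosome 8 genes and the change of Col4a2 above that of 92.0%. With the median of each chromosome removed in each library, Col4a1 kept a log2 fold change of 0.80 ± 0.09 (SE, adjusted p = 0.019 by limma) and Col4a2 one of 0.42 (SE 0.15, adjusted p = 0.146). The 7 other tested genes that lie at least in part within 1 Mb of the ends of either gene had a median of 0.23 and ran from -0.79 for Irs2 to 0.52 for Cars2, and none was called by both tests. The copy number of the chromosome was not measured.

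**Figure D2:**
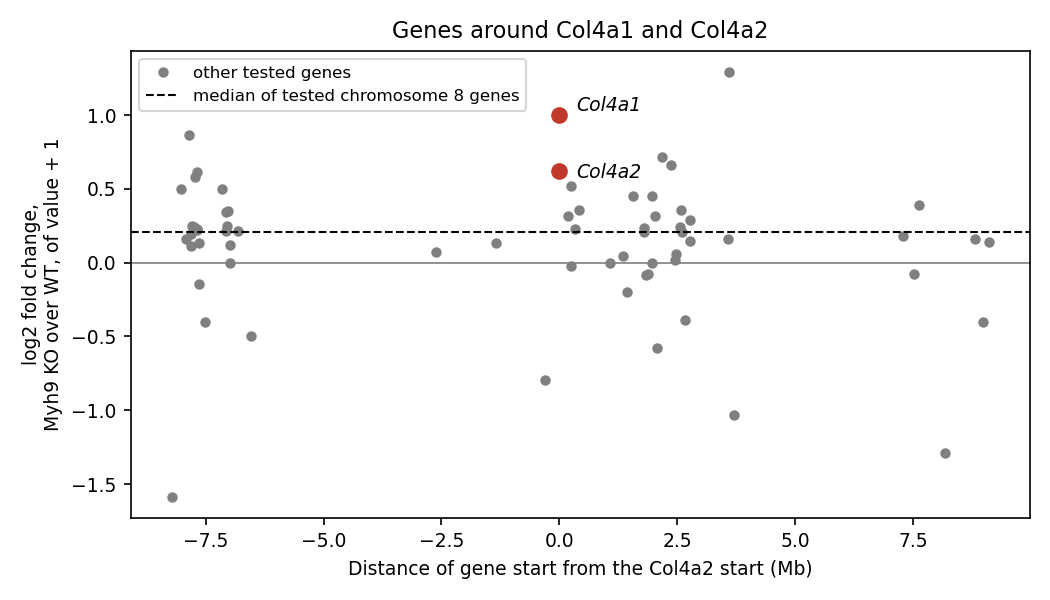
Log2 fold change (Myh9 KO over WT) of the tested chromosome 8 genes nearest to Col4a2, against the distance of their start from that of Col4a2 in Mb. The dashed line is the median of 0.21 over all 646 tested genes of the chromosome, most of which lie outside the plotted range. Col4a1 at 1.00 and Col4a2 at 0.62 lie above the other plotted genes within 1 Mb.

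Of the 6 other basement membrane collagen genes only Col18a1 reached the filter. It codes for collagen XVIII, which also carries heparan sulfate, and had values of 114 and 127 in Myh9 KO, against 147 in each WT library. It passed with random decimals only (log2 fold change -0.29 ± 0.07, adjusted p = 0.117 by limma, and 0.0166 with random decimals). Col4a3, Col4a4, Col4a5, Col4a6 and Col15a1 were listed at 0 in all 4 libraries.

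**Figure D3:**
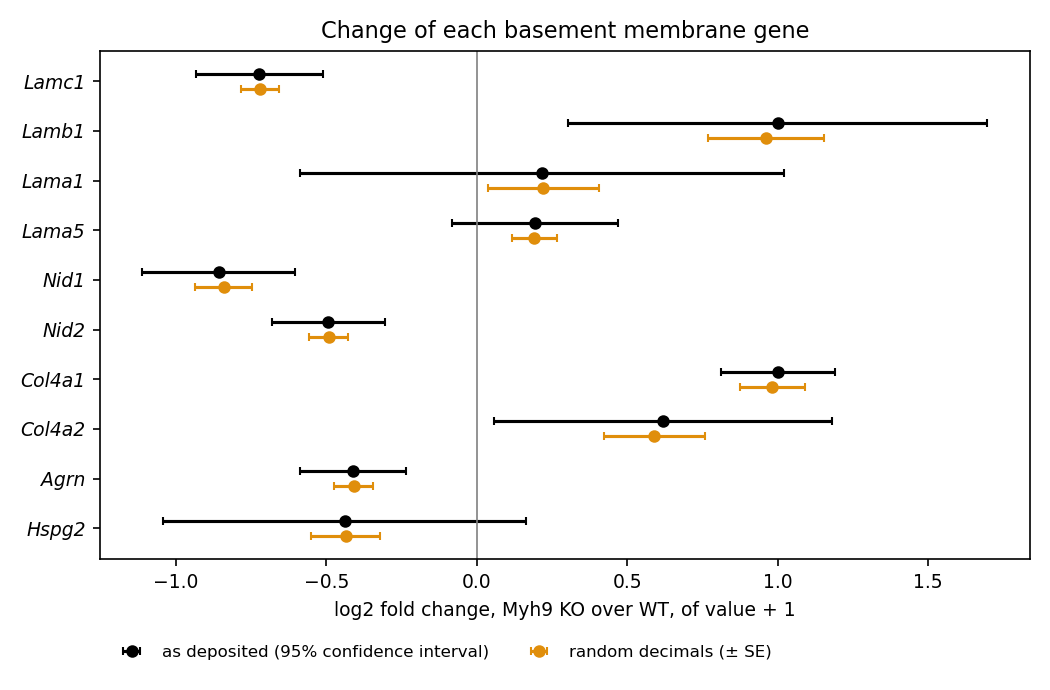
Log2 fold change (x axis, Myh9 KO over WT, of value + 1) of each basement membrane gene; black points are the limma fit on the deposited values with 95% confidence intervals, orange points the fit with random decimals with standard errors (n = 2 libraries per group). The intervals of Lamc1, Nid1, Nid2 and Agrn lie below 0, those of Col4a1, Col4a2 and Lamb1 above 0, and those of Lama1, Lama5 and Hspg2 span 0; these intervals are not adjusted for the number of genes.

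Other genes of the pathway were described from lists drawn up by function. Beside the counts below, 5.12% of all genes tested were called higher and 5.79% lower by both tests. No list was tested against these shares, and in a short list 1 call says little. Of the genes below that rose or fell, leaving out at least 1 of the libraries ended the call on the deposited values for all but B3gat3 and Pxdn (adjusted p by limma of at most 0.233), and with random decimals for Pxdn and Hnf4a. Of 7 tested receptors for laminin and collagen, 1 rose and none fell, with a median log2 fold change of 0.05. The gene that rose was Bcam, for a laminin alpha 5 receptor of the immunoglobulin family, at 225 and 238 in Myh9 KO, against 136 and 140 in WT (log2 fold change 0.74 ± 0.04, adjusted p = 0.0138 by limma). Dag1, for dystroglycan, had values of 80 and 87 in Myh9 KO and 79 and 82 in WT (fold interval 0.90 to 1.19, adjusted p = 0.589). Itgb1, for the integrin beta 1 chain, had values of 30 and 25 in Myh9 KO and 27 and 30 in WT (fold interval 0.705 to 1.32, adjusted p = 0.821). Of 10 tested genes that build the laminin-binding sugar of dystroglycan none was called by both limma tests. On the deposited values 1 was higher, and with random decimals 1 was lower. An unadjusted limma p under 0.05 on the deposited values was found for 4, a count without a share over all genes. The genes of this list with the highest values were Pomgnt1 (47 and 47 in Myh9 KO, 50 and 49 in WT) and Pomt1 (20 and 24 in Myh9 KO, 16 and 20 in WT). Their limma adjusted p was 0.123 and 0.398.

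Heparan sulfate is the sugar chain of agrin and perlecan. Of 15 tested genes that make or trim it, 3 fell and none rose by both limma tests (median log2 fold change -0.05). On the deposited values 2 more were called higher, Extl2 (adjusted p = 0.00111) and Ndst2 (0.0101), which did not pass with random decimals (0.204 and 0.402). Ext1, a subunit of the polymerase that extends the chain, was listed at 5 and 6 in Myh9 KO, against 13 and 14 in WT (log2 fold change -1.16 ± 0.11, adjusted p = 0.0305 by limma). Hs6st1, a 6-O-sulfotransferase, had values of 44 and 46 in Myh9 KO, against 64 and 66 in WT (-0.52 ± 0.04, adjusted p = 0.0193). B3gat3, which completes the linker between protein and sugar chain, was listed at 29 in each Myh9 KO library and 40 in each WT library (-0.45 ± 0.01, adjusted p = 0.00549). Its small SE rests on these equal values, and with random decimals the change was -0.44 ± 0.08 (limma adjusted p = 0.00625).

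Of 18 tested genes for the folding and secretion of collagen, 2 rose and 1 fell (median log2 fold change -0.08). P4hb, the beta subunit of prolyl 4-hydroxylase, had values of 497 and 498 in Myh9 KO, against 372 and 378 in WT (log2 fold change 0.41 ± 0.01, adjusted p = 0.00516 by limma). With random decimals its SE was 0.04 (limma adjusted p = 0.000504). Sec13, a coat subunit of vesicles that leave the endoplasmic reticulum, had values of 294 and 295 in Myh9 KO, against 217 and 225 in WT (0.41 ± 0.02, adjusted p = 0.0156). It lies on chromosome 6, whose tested genes had a median of 0.45, and its log2 fold change was -0.03 with the chromosome median removed. Crtap, part of the prolyl 3-hydroxylase complex, fell to 189 and 201 in Myh9 KO, against 261 and 254 in WT (-0.40 ± 0.04, adjusted p = 0.038).

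Among 10 tested linkers and crosslinkers of the matrix 1 rose and 3 fell (median log2 fold change -0.27). Pxdn, for the peroxidase that crosslinks collagen IV, was listed at 3 in each Myh9 KO library and at 1 in each WT library. It passed both tests (limma adjusted p = 0.000976, and 0.0459 with random decimals), though in the second not with every library left out (at most 0.103). The genes that fell code for collagen-binding or basement membrane proteins. Sparc had values of 155 and 162 in Myh9 KO, against 214 and 212 in WT (-0.42 ± 0.03), with an adjusted p of 0.02. Smoc1 had values of 10 and 12 in Myh9 KO, against 21 and 22 in WT (-0.91 ± 0.11, adjusted p = 0.0448). Fbln1 had values of 33 and 35 in Myh9 KO, against 47 and 48 in WT (-0.47 ± 0.04, adjusted p = 0.0272). Of 5 tested matrix proteases and inhibitors 1 rose and none fell (median log2 fold change 0.29). Mmp2, a gelatinase that cleaves collagen IV, was listed at 8 and 9 in Myh9 KO, against 4 in each WT library (0.92 ± 0.07, adjusted p = 0.0222), and lies on chromosome 8. The members with the highest values were not called. Timp1, an inhibitor of matrix metalloproteinases, had values of 108 and 105 in Myh9 KO and 108 and 106 in WT (fold interval 0.94 to 1.05, limma adjusted p = 0.942 with random decimals and 0.895 on the deposited values). Mmp14, for a membrane-bound metalloproteinase, had values of 16 and 13 in Myh9 KO and 10 and 11 in WT (fold interval 0.967 to 1.86, limma adjusted p = 0.174).

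**Figure D4:**
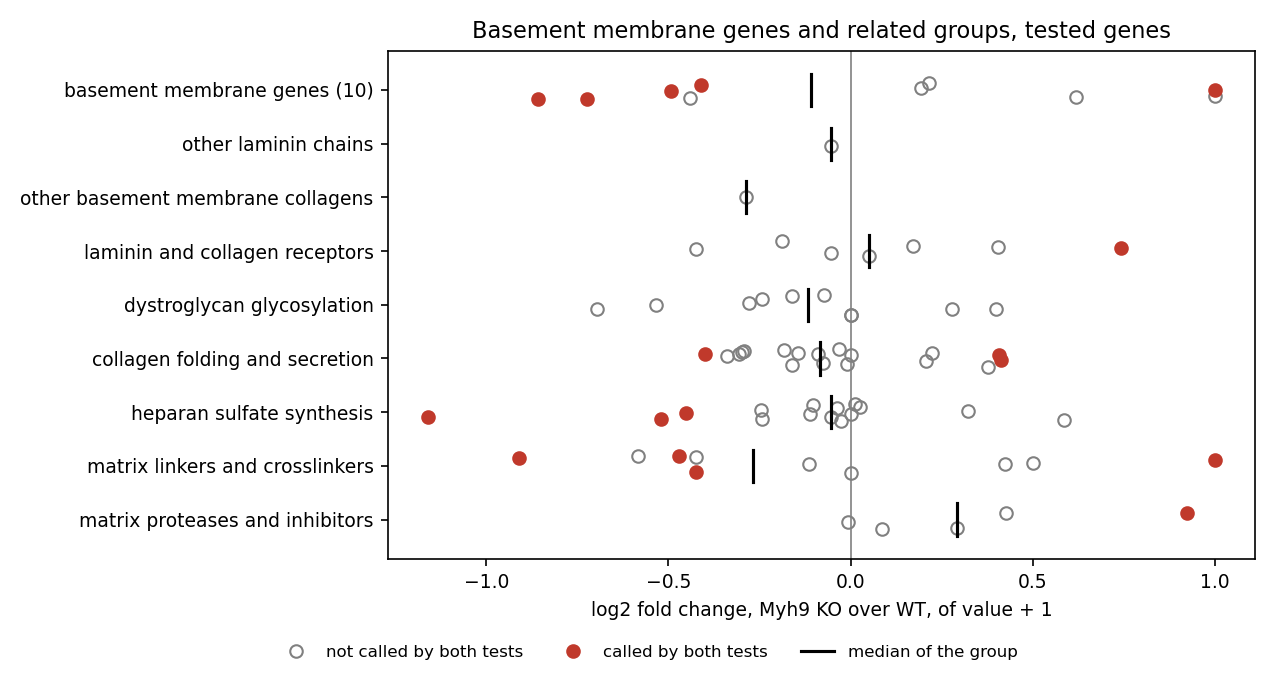
Log2 fold change (x axis, Myh9 KO over WT) of the tested genes of the 10-gene set and of 8 related groups; filled points passed both tests, open points did not, and bars are group medians. By both tests the heparan sulfate group holds 3 genes that fell and none that rose, with 2 more higher on the deposited values alone, and the protease group 1 that rose and none that fell.

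Primitive and parietal endoderm make much of the collagen IV and laminin of the early embryo, so their markers were set beside these members. The members went both ways: Col4a1 rose, Lamc1 fell, and Col4a2 and Lamb1 were higher with random decimals only. Lama1 and Lama5 were called by neither test. Of 13 such markers 9 were listed at 0 in all 4 libraries, among them Gata6, Sox7, Foxa2 and Pdgfra, and Sox17 was at 0 and 1 in Myh9 KO and 0 in WT. The 13 values summed to 10 and 11 in Myh9 KO, against 2 and 4 in WT. Hnf4a was listed at 2 and 3 in Myh9 KO and at 0 in both WT libraries. It passed both tests (limma adjusted p = 0.0344), though with random decimals not with every library left out. Hnf4a reached the filter on low values only through the Myh9 KO libraries, so it could hardly have been called lower and its call carries little weight. Gata4 was listed at 5 in each Myh9 KO library and at 1 and 2 in WT (limma adjusted p = 0.092, and 0.0112 with random decimals), and Dab2 at 3 and 2 in Myh9 KO and at 1 and 2 in WT. The part of such cells in the values of the collagen IV and laminin members was not tested. Of 10 markers of feeder fibroblasts, another source of matrix, 8 were listed at 0 throughout, among them Col1a1, Col1a2 and Col3a1, and the sum was 5 and 7 in Myh9 KO and 4 in each WT library.

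Values differed with GC content both between the groups and between the Myh9 KO libraries. Tested genes were split into 5 equal classes by GC content. In the class of lowest GC the log2 fold changes had a median of -0.16, and in the class of highest GC one of 0.11. Between Myh9 KO 2 and Myh9 KO 1 the same classes differed by -0.14 and 0.09, and between WT 2 and WT 1 by 0.00 in both. The transcripts of the 10 members held 50.4% to 60.9% GC. Agrn (58.8%) and Hspg2 (60.9%) lie in the highest class and had negative log2 fold changes, while Col4a1 (57.7%), Col4a2 (60.6%) and Lama5 (59.9%) lie in the same class with positive ones. With the trend on GC content and length removed, Lamc1, Nid1, Nid2 and Agrn had log2 fold changes of -0.78, -0.89, -0.59 and -0.53, and Col4a1 one of 0.89.

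**Figure D5:**
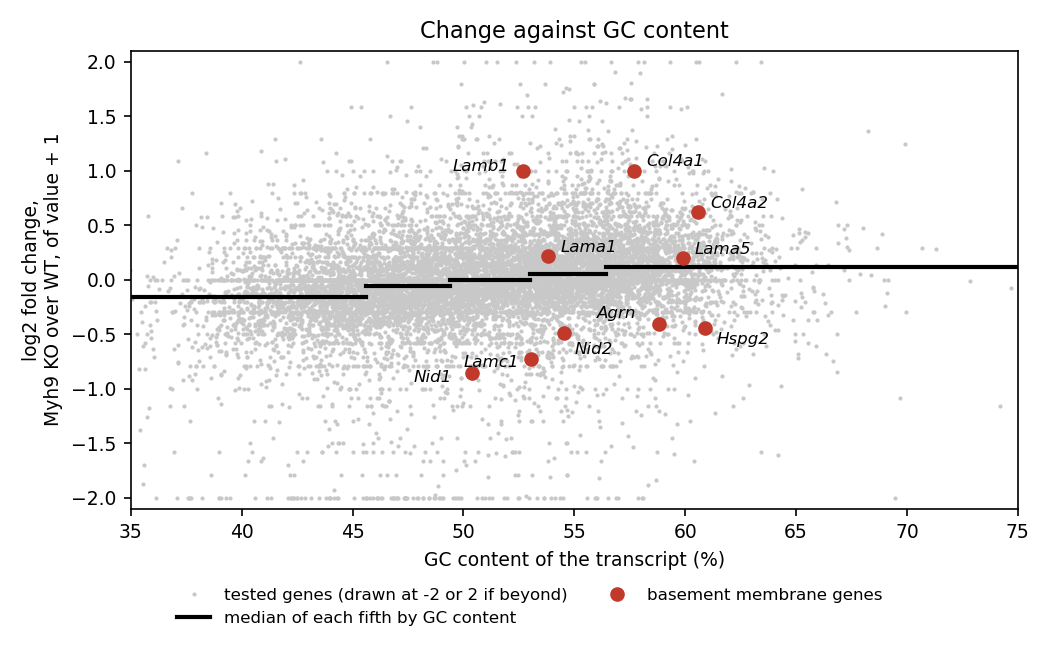
Log2 fold change (Myh9 KO over WT) of tested genes against the GC content of the transcript in percent, for 35% to 75%; black bars are medians of 5 equal classes by GC content, from -0.16 to 0.11, and red points the basement membrane genes. Agrn, which fell, and Col4a1, which rose, both lie in the class of highest GC.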

How the data were processed

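RNA-seq was made from poly(A)-enriched RNA, per the labels' protocols. The authors deposited 1 table of whole-number values, treated here as a score since totals were nearly equal in all libraries; read counts and depth are not given in it, so precision rests on 2 libraries per group. Bowtie2 2.2.5, RSEM 1.3.0, bcl2fastq, mm10 and hg38 are listed with no stated use, per the submitters' processing notes. Of 50600 identifiers, 50376 were in GENCODE vM21 (GRCm38), 92.91% with equal coordinates.

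limma 3.58.1 (R 4.3.3) was fitted with an intensity trend to log2(value + 1) for genes with a mean of at least 1, Myh9 KO against WT, without replicate block, with Benjamini-Hochberg adjustment over all 11231 genes. For random decimals, uniform numbers between 0 and 1 were added and medians taken over 25 draws. In a test on simulated whole numbers, a small part of the genes was changed and the spread of every gene was set by its level. Most genes called on the values as given were then ones simulated without change. Few or none were so with random decimals or by both tests, and calling by both missed most of the smaller changes put in. These shares depend on the simulated setting and do not carry over to the deposited data. Alternatives were another pseudocount, filters and scalings, a replicate block, removal of GC and length trends or chromosome medians, and leaving out each library. GC content and length came from the principal transcript. Named genes were Myh9, the members and, per list, up to 4 genes called by both tests with the smallest p, or up to 2 with the highest values where fewer than 2 were called; genes named otherwise were chosen after their values were seen. Members, lists and tests were chosen with earlier results of these data known. Some genes of these lists are not reported here.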

Additional observations from a re-analysis of the deposited data

How the results depend on the processing

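The deposited values gave 805 genes higher and 894 lower in Myh9 KO, with 1 and 4 of the 10 members. Random decimals gave 1235 and 1352 genes, with 3 members higher. Removing the trend on GC content and length gave 1418 genes higher and 3 members higher. Members called higher numbered 2 with median-of-ratios scaling and 2 with chromosome medians removed. The counts over all genes in these settings are not reported here. Leaving out 1 library on the deposited values kept the sign of the 5 members that passed both tests, although their calls did not all hold, as given above. Their log2 fold changes then ran from -0.79 to -0.66 for Lamc1 and from -0.93 to -0.78 for Nid1. For Nid2 they ran from -0.55 to -0.44, for Agrn from -0.45 to -0.37 and for Col4a1 from 0.94 to 1.06. Leaving out a library with random decimals was a combination chosen after the data were seen. Lama1 changed sign in 1 case, to -0.0091 with random decimals and without Myh9 KO 2. The labels do not say that replicate numbers mark a shared culture, and the numbered libraries hardly deviated together (r = 0.04 across genes). With the replicate block, 10 genes were higher and 44 lower, and 0 members were called in either direction (limma adjusted p of at least 0.0723). The fold changes were the same. The other alternatives, pseudocount 0.1, no filter, a minimum mean of 5 and quantile normalization, changed the call of none of the 10 members. Whole numbers limit what can be read for Lama1, Lamb1 and Col4a2.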
